A study of Rattus norvegicus with 17 samples.

Results

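The comparison described here is between the hippocampal RNA of rats kept at Site #2 (Trinity) and at Site #3 (UAB), which were bought from different vendors. Its samples were chosen by the site in their titles, 6 libraries from Site #2 and 6 from Site #3, which makes 12 of the 17 libraries of the series. The other 5 came from Site #1, which used the vendor of Site #2, and their values are set beside the comparison for a few genes. The study asked whether protocol differences between laboratories can affect baseline DNA methylation data from the hippocampus of untreated rats. It examined gene expression beside methylation.

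All rats were male SAS Sprague Dawley rats without injury or drug, and each library was made from the whole hippocampi of 1 rat, so that replicates are separate animals. The rats of Site #2 came from Charles River, were 8.3 weeks old on arrival, were housed singly and were killed 18 to 19 days later, and their hippocampi were taken out in saline. The rats of Site #3 came from Harlan (now Envigo), were 8 weeks old on arrival, shared cages and were killed after 27 days, and their hippocampi were taken out in bubbled artificial cerebrospinal fluid. The chow also differed, both at the breeder and in the laboratory. The rats of Site #2 had the shorter journey and were weighed on the day before death, those of Site #3 on the day itself, and cage sizes differed. Vendor, journey, chow, housing, weighing, body weight, days in the laboratory, dissection fluid and site all change together between these groups and cannot be told apart. The rats of Site #1 were like those of Site #2 in vendor, chow, arrival age (8.3 weeks) and days to death (18 to 19). Single housing, the day of weighing and saline were also shared. Journey, cages and bedding differed between Site #1 and Site #2.

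The hippocampus is built of excitatory pyramidal neurons in the CA fields and granule neurons in the dentate gyrus, with inhibitory interneurons between them. Around the neurons lie astrocytes, myelin-forming oligodendrocytes, blood vessels and microglia, the resident macrophages of the brain. Choroid plexus and meninges touch the hippocampus and can be carried along when it is dissected.

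The values are the log2 expression values per Ensembl gene that the authors deposited, and each difference below is Site #3 minus Site #2 on that scale. Library medians lay between 7.48 and 7.59. The files hold no read counts, so the depth of each library is unknown. The spread of lowly expressed genes was small, with a median SE of 0.0053 log2 units at a mean under 4, beside 0.049 from 4 to under 8. Their differences may be understated, which was not tested. Per-million values (PM) were back-transformed from the log2 values and scaled to the same sum in every library. They rank genes by level only roughly, since the step that made the log2 values is not named and may have shrunk them. A gene is called when limma gives it a Benjamini-Hochberg adjusted p under 0.05 over the 22664 genes tested, out of 32494 listed. The other 9830 genes stood at exactly 0 in all 17 libraries.

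Markers of the dissected tissue were present in each of the 12 libraries. C1ql2, made by dentate granule cells, lay between 11.66 and 12.19, Mpped1, a marker of CA1, between 13.28 and 13.69, and Rgs14, a marker of CA2, between 12.48 and 13.01. Gad2, the glutamate decarboxylase of inhibitory neurons, lay between 13.42 and 13.82.

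A few libraries stood apart before any comparison. The mean log2 value over 10 genes of meninges and fibroblasts was 6.88 in Site #3 replicate 1, 6.72 in Site #2 replicate 3 and 6.66 in Site #3 replicate 2, against at most 6.25 in the other 9 libraries. The gene F5, a coagulation factor made by choroid plexus, stood at 12.04 in Site #3 replicate 1 and at no more than 5.76 in the other 11. That library held 25 genes more than 1 log2 unit above all the other 11, and no other library held more than 1 such gene. The count of called genes is given below with and without these 3 libraries. So is each list median printed below that moves by more than 1.5 times without them.

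Between Site #2 and Site #3, limma called 239 of 22664 genes (1.05%), 120 of them higher at Site #3 (0.529%) and 119 lower (0.525%). At an unadjusted p under 0.05, 1640 genes were higher (7.24%) and 1712 lower (7.55%). The values of the 6 libraries of one site all lay above those of the other for 442 genes (1.95%), and 206 of the 239 called genes were among them. The same test called 23 genes between Site #1 and Site #3 (0.101%). The rats of Site #1 and Site #2 shared the vendor, but also chow, single housing, days in the laboratory and dissection fluid. Between these sites limma called 0 genes (0%), with 1527 at an unadjusted p under 0.05. These pairs share libraries, and whether the counts differ from each other was not tested.

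The called differences were small. Their median was 0.23 log2 units for the genes higher at Site #3 (1.17-fold) and -0.19 for the genes lower (1.14-fold), beside 0.00015 over all genes tested. Of the 239 genes, 156 differed by 0.25 log2 units or less, 17 by more than 0.5 and 2 by more than 1. Rats of one site were also alike. Among the 13679 genes whose mean reached 1 PM, the median SD between rats was 0.088 log2 units at Site #2 and 0.075 at Site #3, and the median absolute difference between the sites was 0.060.

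Calls were not spread evenly over expression levels. Of the 7787 genes with a mean log2 value under 4, 8 were called (0.103%), while 41 of 2098 genes at 12 and over were called (1.95%). In between, 43 of 4185 genes from 4 to under 8 (1.03%) and 147 of 8594 from 8 to under 12 (1.71%) passed the test. The direction of the calls also varied between levels, which was not tested. From 4 to under 8, 32 genes were higher at Site #3 and 11 lower, and at 12 and over 15 were higher and 26 lower. The calls under 4 (4 higher, 4 lower) and from 8 to under 12 (69 higher, 78 lower) were nearer to an even split. The even split of all calls depended on the scaling, since subtracting each library's median left 73 genes higher and 160 lower.

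**Figure D1:**
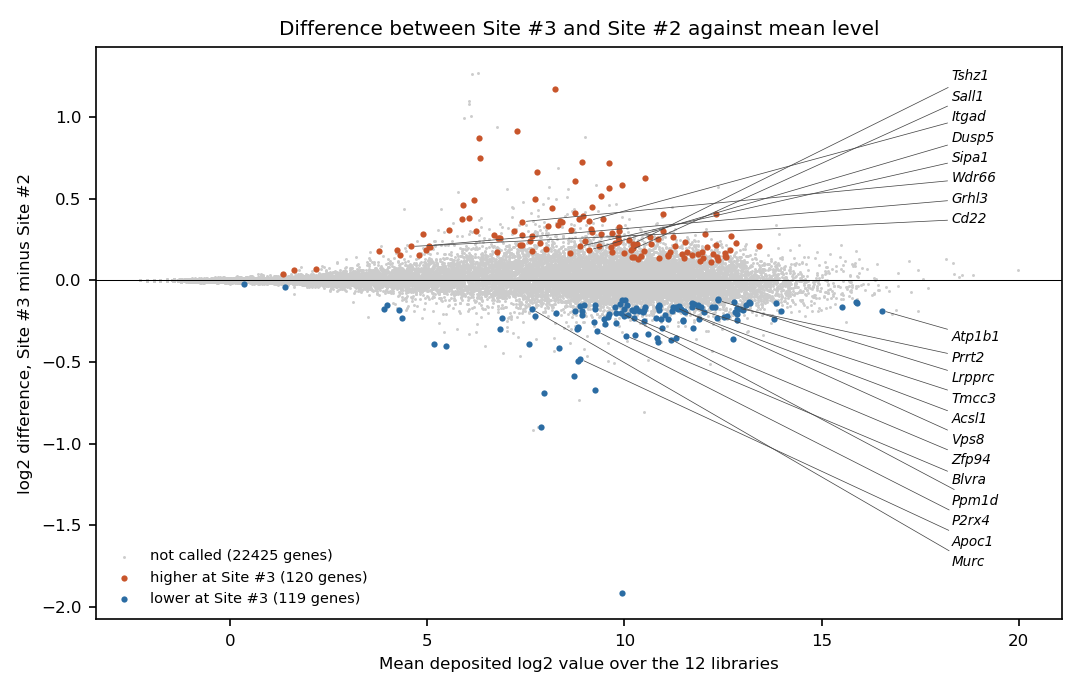
Each point is 1 of the 22664 genes tested, at its mean deposited log2 value over the 12 libraries (horizontal axis) and its log2 difference, Site #3 minus Site #2 (vertical axis), with called genes in colour and the 20 called genes with a symbol labelled. Most called genes lie within 0.5 log2 units of the line at 0.

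How many genes were called depended on single rats. The count was 333 without Site #2 replicate 1, and 126, 104, 115, 131 and 110 without Site #2 replicates 2, 3, 4, 5 and 6 in turn. It was 148, 108, 122, 153, 105 and 81 without Site #3 replicates 1, 2, 3, 4, 5 and 6 in turn. Of the 239 genes, 67 were called in each of these 12 fits, 40 of them higher at Site #3 and 27 lower. Without the 3 libraries highest in meningeal genes, an alternative chosen after seeing the data that leaves 5 libraries against 4, limma called 29 genes, 24 of which were among the 239.

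**Figure D2:**
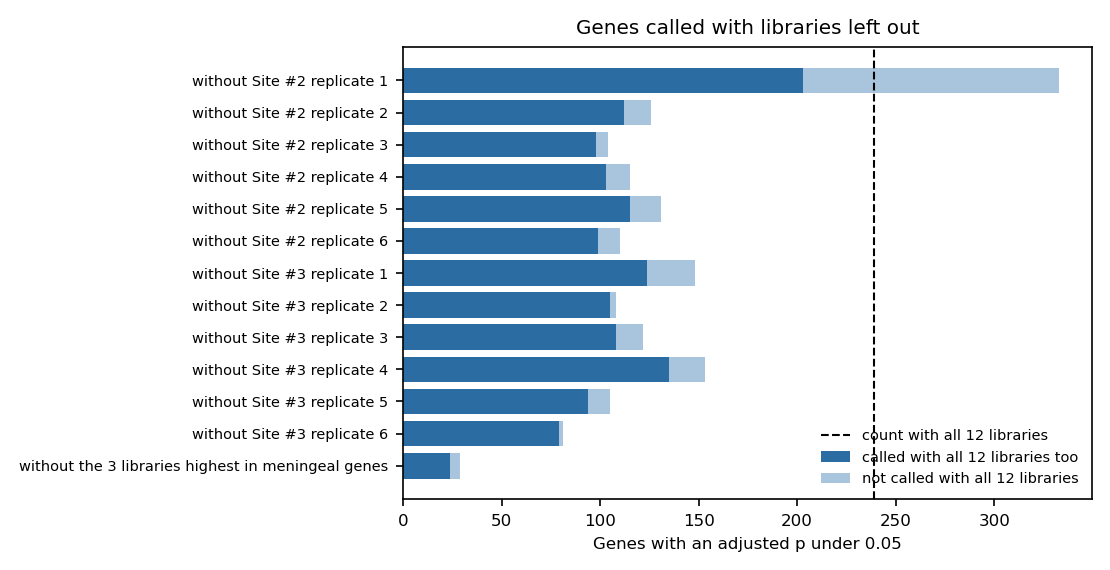
Bars give the number of genes with an adjusted p under 0.05 when the library or libraries named on the left are left out, with the dark section marking genes also called with all 12 libraries. The dashed line marks the 239 genes called with all 12, and only the bar without Site #2 replicate 1 passes it.

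Gene symbols were known for 1436 of the 22664 genes tested. These pairs of identifier and symbol come from the study's supplementary tables and are no random sample of genes. Most of them are listed there for a difference in DNA methylation between sites. Named genes, list members and shares among genes with a symbol therefore describe a selected set and may not hold for all genes. The genes with a symbol include 20 of the 239 called genes, 8 higher at Site #3 and 12 lower. The libraries of the sites did not overlap for 15 of the 20. Without Site #2 replicates 1 to 6 in turn, 18, 6, 2, 6, 10 and 8 of the 20 were called, and without Site #3 replicates 1 to 6 in turn, 9, 5, 9, 9, 5 and 3. Without the 3 libraries highest in meningeal genes, Cd22 alone of the 20 was called. Differences such as those of Itgad (0.36), Tshz1 (0.22), Sall1 (0.19) and P2rx4 (-0.29) were about as large in the 9 libraries left. Others were smaller there, such as those of Wdr66 (0.26, against 0.36 with all 12), Ppm1d (-0.16, against -0.20) and Murc (-0.14, against -0.18). The mean of Site #1 was nearer to Site #2 for 12 of the 20 genes and nearer to Site #3 for 8, and over the 239 called genes for 142 and 97. It was nearer to Site #2 for 59.4% of the called genes, beside 50.8% of all genes tested, and whether these shares differ was not tested. None of the 20 changed direction under any alternative run, but many of these runs could not reverse one. Alternatives that change only the genes tested or the estimate of the spread leave each difference as it is. For the 15 genes without overlap, leaving out libraries cannot reverse the direction either. P2rx4 and Grhl3 were called whichever single library was left out, and each of the other 18 lost its call in at least 4 of the 12 fits, with adjusted p values of up to 0.102 from limma after Benjamini-Hochberg adjustment.

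**Figure D3:**
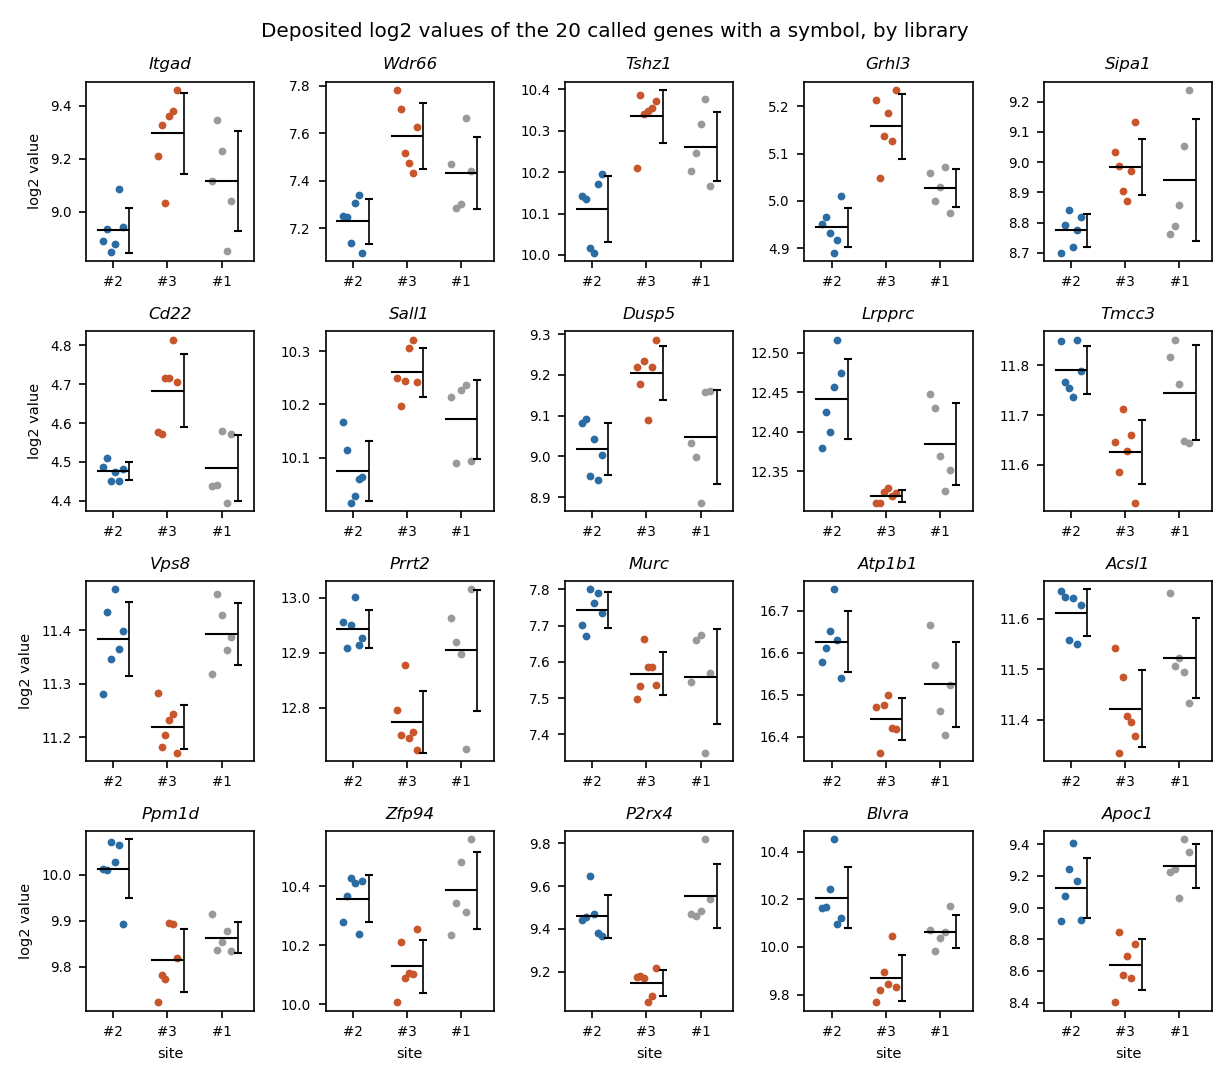
Each panel shows 1 of the 20 called genes with a symbol, with the deposited log2 value of each library as a point, grouped by site on the horizontal axis, the mean as a line and the SD as a bar. Sites #2 and #3 have 6 points each and Site #1 has 5, and the vertical axes differ between panels and do not start at 0.

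Of the genes higher at Site #3, Itgad encodes the alpha D chain of a leukocyte integrin. Its lowest, median and highest log2 values were 8.85, 8.91 and 9.09 at Site #2 and 9.03, 9.34 and 9.46 at Site #3. Only Site #3 replicate 3 lay within the range of Site #2. The mean was 0.37 log2 units higher at Site #3 (SE 0.067, 1.29-fold), with an adjusted p of 0.0271 in limma after Benjamini-Hochberg adjustment, and 5 of 6 libraries of Site #3 lay above all of Site #2. Over the alternatives its adjusted p ran from 0.00794 to 0.181 (limma, Benjamini-Hochberg).

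Sall1 encodes a zinc finger transcription factor that, in the adult brain, helps to keep the identity of microglia. It stood at 10.02, 10.06 and 10.17 (lowest, median, highest) at Site #2 and 10.20, 10.25 and 10.32 at Site #3. The sites did not overlap. The difference of 0.19 (SE 0.033, 1.14-fold) had an adjusted p of 0.0235 (limma, Benjamini-Hochberg), with 6 of 6 libraries of Site #3 above Site #2. Cd22, a sialic acid-binding receptor of B cells and microglia, was expressed at a mean of 0.58 PM and lies below the level set for named genes and was chosen after its values were seen. Its log2 values ran from 4.45 to 4.51 at Site #2, with a median of 4.48, and from 4.57 to 4.81 at Site #3, with a median of 4.71. No library of one site reached the range of the other, and the difference was 0.21 (SE 0.040, adjusted p 0.0311 in limma, Benjamini-Hochberg, higher in 6 of 6 libraries). Sipa1, which switches off the small GTPase Rap in lymphoid and other cells, was higher by a like amount, 0.21 (SE 0.045, adjusted p 0.0462 in limma, Benjamini-Hochberg), again without overlap in 6 of 6 libraries.

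The other genes higher at Site #3 have varied roles. Tshz1 is a zinc finger transcription factor of the teashirt family with strong expression in striatum and olfactory bulb. Its log2 values were 10.01, 10.14 and 10.19 (lowest, median, highest) at Site #2 and 10.21, 10.35 and 10.39 at Site #3. The ranges nearly met, since Site #3 replicate 1 lay well below the other 5 libraries of its site. The difference was 0.22 (SE 0.042, 1.17-fold, adjusted p 0.0294 in limma, Benjamini-Hochberg, higher in 6 of 6 libraries). Wdr66, a WD-repeat protein of cilia and flagella, differed by 0.36 (SE 0.065, 1.28-fold, adjusted p 0.0260 in limma, Benjamini-Hochberg), from 7.10 to 7.34 at Site #2 against 7.43 to 7.78 in the 6 of 6 libraries of Site #3. Its highest values, 7.78 and 7.70, were those of Site #3 replicates 1 and 2, which are among the 3 libraries highest in meningeal genes. Without those 3 libraries the difference of Wdr66 was 0.26. Grhl3, an epithelial transcription factor with a mean of 0.81 PM, was chosen in the same way. It ran from 4.89 to 5.01 at Site #2 and from 5.05 to 5.24 at Site #3, a difference of 0.21 (SE 0.036, adjusted p 0.0191 in limma, Benjamini-Hochberg) without overlap in 6 of 6 libraries.

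Dusp5 encodes a nuclear phosphatase that switches off the kinase ERK and is itself induced as an immediate-early gene, which means that its transcription starts within minutes of a stimulus. It stood at 8.94, 9.02 and 9.09 (lowest, median, highest) at Site #2 and 9.09, 9.22 and 9.29 at Site #3. The sites overlapped only where Site #3 replicate 4 fell just under Site #2 replicate 2. The difference was 0.19 (SE 0.039, 1.14-fold, adjusted p 0.0460 in limma, Benjamini-Hochberg), with 5 of 6 libraries of Site #3 above all of Site #2. Without Site #3 replicate 6 its adjusted p was 0.101 (limma, Benjamini-Hochberg), and over all alternatives it ran from 0.0368 to 0.267 (limma, Benjamini-Hochberg).

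The sequence before the start of a gene holds much of what switches it on, so the 250 bases upstream of the called genes with a symbol were read from the RefSeq promoter table of build GRCr8, which matched 14 of the 20. Both strands were searched for the CArG box of serum response factor, the cAMP response element TGACGTCA, the E-box CACGTG and the PU.1 core GAGGAAG of myeloid genes. Of the 33469 promoters in the table, 1.5% hold a CArG box, 1.59% the cAMP response element, 5.59% the E-box and 10.2% the PU.1 core. Dusp5 and Cd22 each held 1 of these motifs, and the promoters of the other matched genes held none of the 4. The upstream sequences of these 2 genes are shown, 5′ to 3′ on the strand of the gene, because they are the ones with a match, with the matches in capitals. Dusp5 lies on the plus strand, at chr1:262543524-262543773, and holds 2 adjacent CArG boxes over bases 82 to 63 before the start, and 67.2% of its bases are G or C, beside a median of 51.2% over all promoters. Cd22 lies on the minus strand, at chr1:95259731-95259980, with a PU.1 core over bases 64 to 58 before the start. A match of letters is a description only and shows no binding.
Dusp5: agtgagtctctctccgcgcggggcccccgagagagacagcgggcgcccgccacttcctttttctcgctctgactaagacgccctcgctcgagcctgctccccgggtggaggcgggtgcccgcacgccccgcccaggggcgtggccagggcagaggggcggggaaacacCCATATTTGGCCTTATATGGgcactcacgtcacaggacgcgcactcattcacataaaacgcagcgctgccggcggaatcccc
Cd22: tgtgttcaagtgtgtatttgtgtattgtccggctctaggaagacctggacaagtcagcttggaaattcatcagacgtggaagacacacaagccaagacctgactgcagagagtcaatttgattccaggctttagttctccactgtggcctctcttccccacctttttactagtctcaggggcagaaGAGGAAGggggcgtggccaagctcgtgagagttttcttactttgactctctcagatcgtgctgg

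Among the 12 genes with a symbol that were lower at Site #3, P2rx4 held its call most often, in 21 of 23 alternatives. It encodes a cation channel opened by extracellular ATP, found on neurons and on activated microglia. Its log2 values were 9.37, 9.45 and 9.65 (lowest, median, highest) at Site #2 and 9.06, 9.17 and 9.22 at Site #3. The ranges were well apart, and Site #2 replicate 3 stood above the rest of its site. The difference was -0.31 (SE 0.047, 1.24-fold lower), with an adjusted p of 0.0133 (limma, Benjamini-Hochberg) and 6 of 6 libraries of Site #3 below Site #2. Over the alternatives the adjusted p ran from 0.00323 to 0.0591 (limma, Benjamini-Hochberg). At Site #1 its values ran from 9.46 to 9.82, above all 6 libraries of Site #3. Site #3 differed from Site #1 by -0.41 (SE 0.063, adjusted p 0.0442 in limma, Benjamini-Hochberg, lower in 6 of 6 libraries), while Site #2 differed from Site #1 by -0.09 (SE 0.071, adjusted p 0.819 in limma, Benjamini-Hochberg). The comparisons share the libraries of Sites #2 and #3.

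A pair of the genes lower at Site #3 act in lipid handling. Apoc1, a small apolipoprotein made by astrocytes and macrophages in the brain, had the largest difference of the 20 genes. Its values were 8.92, 9.12 and 9.41 (lowest, median, highest) at Site #2 and 8.40, 8.64 and 8.84 at Site #3. Both sites spread widely, but no value of one fell within the other. The difference was -0.48 (SE 0.093, 1.40-fold lower, adjusted p 0.0328 in limma, Benjamini-Hochberg, lower in 6 of 6 libraries). Against Site #1, which ran from 9.06 to 9.43, Site #3 differed by -0.62 (SE 0.085, adjusted p 0.0208 in limma, Benjamini-Hochberg, 6 of 6 libraries lower), and Site #2 differed by -0.14 (SE 0.094, adjusted p 0.817 in limma, Benjamini-Hochberg). Acsl1 joins long-chain fatty acids to coenzyme A. It went from 11.55, 11.63 and 11.65 (lowest, median, highest) at Site #2 to 11.34, 11.40 and 11.54 at Site #3, a difference of -0.19 (SE 0.037, adjusted p 0.0352 in limma, Benjamini-Hochberg), with 6 of 6 libraries below Site #2.

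Blvra reduces biliverdin, a product of haem breakdown, to bilirubin. Biliverdin reductase messenger RNA stood at 10.09, 10.16 and 10.45 (lowest, median, highest) at Site #2 and 9.77, 9.84 and 10.05 at Site #3. The sites did not overlap, although the highest rat of Site #3 came close to the lowest of Site #2. The difference was -0.34 (SE 0.062, 1.27-fold lower, adjusted p 0.0271 in limma, Benjamini-Hochberg, lower in 6 of 6 libraries). At Site #1 the gene had a median of 10.06, between those of the other sites.

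A further pair serve neuronal membranes. Atp1b1 encodes the beta subunit of the sodium and potassium pump and lies among the most highly expressed genes. The libraries stood at 16.54, 16.62 and 16.75 (lowest, median, highest) at Site #2 and 16.36, 16.45 and 16.50 at Site #3. All 6 libraries of Site #3 lay below Site #2, with a difference of -0.18 (SE 0.037, adjusted p 0.0370 in limma, Benjamini-Hochberg). After quantile normalization the difference shrank to -0.07 (adjusted p 0.211 in limma, Benjamini-Hochberg), and over the alternatives the adjusted p ran from 0.0136 to 0.244 (limma, Benjamini-Hochberg). Prrt2, a presynaptic protein that acts with the release machinery and is mutated in paroxysmal movement disorders, had medians of 12.94 at Site #2 and 12.75 at Site #3, and its lowest library at Site #2 (12.91) lay above its highest at Site #3 (12.88). Its difference was -0.17 (SE 0.030, adjusted p 0.0219 in limma, Benjamini-Hochberg), again with 6 of 6 libraries below Site #2.

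The remaining 6 genes lower at Site #3 differed by -0.23 to -0.12 log2 units. They are the zinc finger gene Zfp94 (-0.23), the p53-induced phosphatase Ppm1d (-0.20), the caveolar protein Murc (-0.18), the endosomal tethering protein Vps8 (-0.16), the endoplasmic reticulum protein Tmcc3 (-0.16) and Lrpprc (-0.12), which stabilises mitochondrial messenger RNA. The sites overlapped for Zfp94, Ppm1d and Vps8 and did not for the other 3. Lrpprc was unusual in how alike the rats of Site #3 were. It lay between 12.31 and 12.33 in these 6 libraries (SD 0.0074), against 12.38 to 12.52 at Site #2 (SD 0.051).

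Among called genes with a mean of at least 1 PM and no overlap, the largest differences belonged to genes for which no symbol was at hand. Of the 2 called genes that differed by more than 1 log2 unit, only the first below met these limits. ENSRNOG00000058006 differed by -1.92 log2 units (SE 0.19, 3.77-fold lower, adjusted p 0.000644 in limma, Benjamini-Hochberg, lower in 6 of 6 libraries). Its values were 10.23, 10.86 and 11.56 (lowest, median, highest) at Site #2 and 8.77, 8.97 and 9.17 at Site #3. At Site #1 the 5 rats fell into 2 levels, with 8.83 and 8.94 near Site #3 and 10.53, 10.70 and 10.97 near Site #2. ENSRNOG00000013928 differed by -0.90 (SE 0.10, 1.86-fold lower, adjusted p 0.00201 in limma, Benjamini-Hochberg, lower in 6 of 6 libraries). It ran from 8.09 to 8.69 at Site #2, with a median of 8.27, and from 7.30 to 7.66 at Site #3, with a median of 7.44. Site #1 ranged with Site #2 here, from 7.86 to 8.54. Site #3 differed from Site #1 by -0.75 (SE 0.11, adjusted p 0.0298 in limma, Benjamini-Hochberg, lower in 6 of 6 libraries).

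In the other direction, ENSRNOG00000042985 separated the sites by far more than the spread between rats. Its values were 5.80, 5.88 and 5.93 (lowest, median, highest) at Site #2 and 6.54, 6.77 and 6.84 at Site #3. The difference was 0.87 (SE 0.050, 1.83-fold, adjusted p 7.01e-06 in limma, Benjamini-Hochberg, higher in 6 of 6 libraries). All 5 rats of Site #1, from 5.80 to 6.28, lay below Site #3 as well, which was higher by 0.79 (SE 0.085, adjusted p 0.00365 in limma, Benjamini-Hochberg). ENSRNOG00000037364 was higher by 0.91 (SE 0.17, 1.88-fold, adjusted p 0.0290 in limma, Benjamini-Hochberg, higher in 6 of 6 libraries). Its rats stood at 2 levels at Site #2, with replicates 1, 5 and 6 between 6.40 and 6.44 and replicates 2, 3 and 4 between 7.07 and 7.32. At Site #1, replicates 4 and 5 stood at 6.44 and 6.43 and the other 3 between 7.08 and 7.30, while all of Site #3 lay from 7.41 to 7.88. Of these 4 genes, 3 were called under each of the 23 alternatives. The exception, ENSRNOG00000037364, was called under 14, with adjusted p values from 0.00967 to 0.173 (limma, Benjamini-Hochberg), and lost its call without Site #2 replicates 5 and 6 and without Site #3 replicates 1, 2, 3, 4 and 6, each left out in turn.

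**Figure D4:**
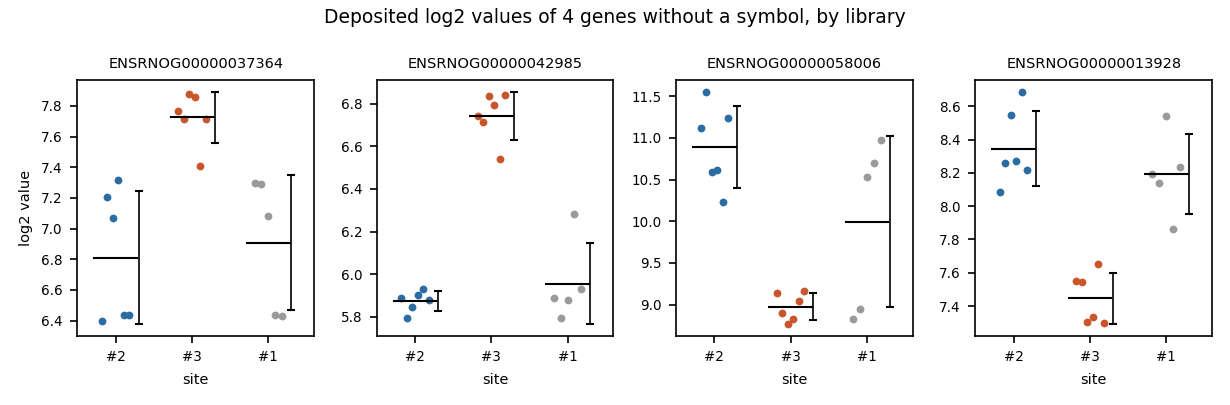
Each panel shows 1 of 4 called genes without a symbol, with the deposited log2 value of each library as a point, grouped by site on the horizontal axis, the mean as a line and the SD as a bar. In each panel the 6 points of Site #3 and the 6 of Site #2 do not overlap, and in ENSRNOG00000058006 the 5 points of Site #1 spread over both levels.

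To look at cell types, lists of marker genes were described by their counts of called genes and their median differences, beside the median of 0.00015 over all genes (0.000023 without the 3 libraries highest in meningeal genes). List members come from the genes with a symbol, and among the 954 of these whose mean reached 1 PM the median difference was 0.025 (0.016 without those 3 libraries), with 138 higher at Site #3 and 74 lower at an unadjusted p under 0.05. Of these 954 genes limma called 6 higher and 12 lower. No test compared a list with these genes or with another list. In bulk tissue, fewer cells of a type and less RNA per cell cannot be told apart. Of 26 microglia and macrophage genes, 12 could be matched. None was called, but 5 were higher at Site #3 at an unadjusted p under 0.05 and 0 lower, and their median difference was 0.10 (0.08 after median centring and 0.09 without the 3 libraries highest in meningeal genes). The summed level of the 12 genes was 164, 178 and 200 PM (lowest, median, highest) at Site #2 and 201, 206 and 213 at Site #3, so that the sums did not overlap, but Csf1r and C1qa make up most of them. The mean log2 value over the 12 genes, in which each counts alike, ran from 7.37 to 7.51 at Site #2 and from 7.47 to 7.56 at Site #3 and did overlap. Csf1r, the receptor for the growth factor that keeps microglia alive, was the most abundant of them, and 3 had means under 1 PM. Csf1r stood at log2 values of 11.73, 11.88 and 12.01 (lowest, median, highest) at Site #2 and 12.01, 12.07 and 12.16 at Site #3, with a difference of 0.20 (SE 0.044) that missed the threshold (adjusted p 0.0550 in limma, Benjamini-Hochberg). The ranges touched at one rat of each site. C1qa, which makes a chain of the first complement component, was higher by 0.27 (SE 0.064, adjusted p 0.0618 in limma, Benjamini-Hochberg), from 10.58 to 11.03 at Site #2 and from 11.06 to 11.17 in 6 of 6 libraries at Site #3. At Site #1 the summed level ran from 176 to 212 PM, over the ranges of both other sites. In the smaller list of 6 microglial genes that the study used, the median was 0.18, with limma calling 0 and 2 higher at an unadjusted p under 0.05, and the sums of the sites overlapped. What part this has in the differences of Itgad, Sall1 and Cd22, all called higher at Site #3, was not tested. P2rx4 (-0.31) and Apoc1 (-0.48), expressed by microglia or macrophages among other cells, were called lower.

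Genes of vessels were described in the same way. Of 29 endothelial and pericyte genes, 14 were matched, and limma called 0 of them, with 7 higher at Site #3 and 0 lower at an unadjusted p under 0.05. The median difference was 0.09 and stayed at 0.09 without the 3 libraries highest in meningeal genes. The 14 genes summed to 309, 335 and 352 PM (lowest, median, highest) at Site #2 and to 340, 346 and 361 at Site #3, which overlap, with the lipid receptor gene S1pr1 the most abundant. At Site #1 the sums ran from 330 to 390 PM, which reaches above both other sites.

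Astrocytes, oligodendrocytes and neurons follow. Of 13 astrocyte genes matched of 21, limma called 0, with 2 higher at an unadjusted p under 0.05 and a median of 0.06. One of these, Gfap, the intermediate filament of astrocytes, had medians of 15.09 at Site #2 and 15.30 at Site #3, with ranges that overlapped widely. Of 6 oligodendrocyte genes matched of 24, limma called 0 and 0 had an unadjusted p under 0.05, with a median of -0.02 (-0.000014 without the 3 libraries highest in meningeal genes). Of 7 excitatory neuron genes matched of 16, limma called 0, with 1 higher and 2 lower at an unadjusted p under 0.05 and a median of 0.06 (0.02 without the 3 libraries highest in meningeal genes). The higher one was Cux2 (0.29), a transcription factor of upper cortical layers, and the 2 lower ones were C1ql2 (-0.21) and Neurod6 (-0.20), a transcription factor of pyramidal cells. Of 4 inhibitory neuron genes matched of 16, limma called 0 and only Gad2 had an unadjusted p under 0.05, with a difference of -0.14. The median of these 4 genes was 0.0014, and -0.013 without the 3 libraries highest in meningeal genes.

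Tissue that borders the hippocampus varied from rat to rat. The 7 choroid plexus and ependyma genes matched of 21 had a median of 0.09, and 0.03 without the 3 libraries highest in meningeal genes. The 10 meningeal genes matched of 24 had a median of 0.08, and -0.0049 without those libraries. In both lists limma called 0 genes and 0 had an unadjusted p under 0.05. Their summed levels followed the libraries rather than the sites. The meningeal genes, of which Col1a1 was the most abundant, summed to between 35.8 and 112 PM over the 12 libraries, with the high values of 112, 91.4 and 78.9 in Site #3 replicate 1, Site #2 replicate 3 and Site #3 replicate 2. Of 13 blood cell genes 3 were matched and limma called 0. One of them, the T cell receptor subunit gene Cd3e, differed by 0.69 (SE 0.27) at an unadjusted p under 0.05, with ranges that overlapped. Of 25 genes of thalamus, striatum and cortex 8 were matched, and limma called 1, Tshz1, with 3 higher and 0 lower at an unadjusted p under 0.05 and a median of 0.11.

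**Figure D5:**
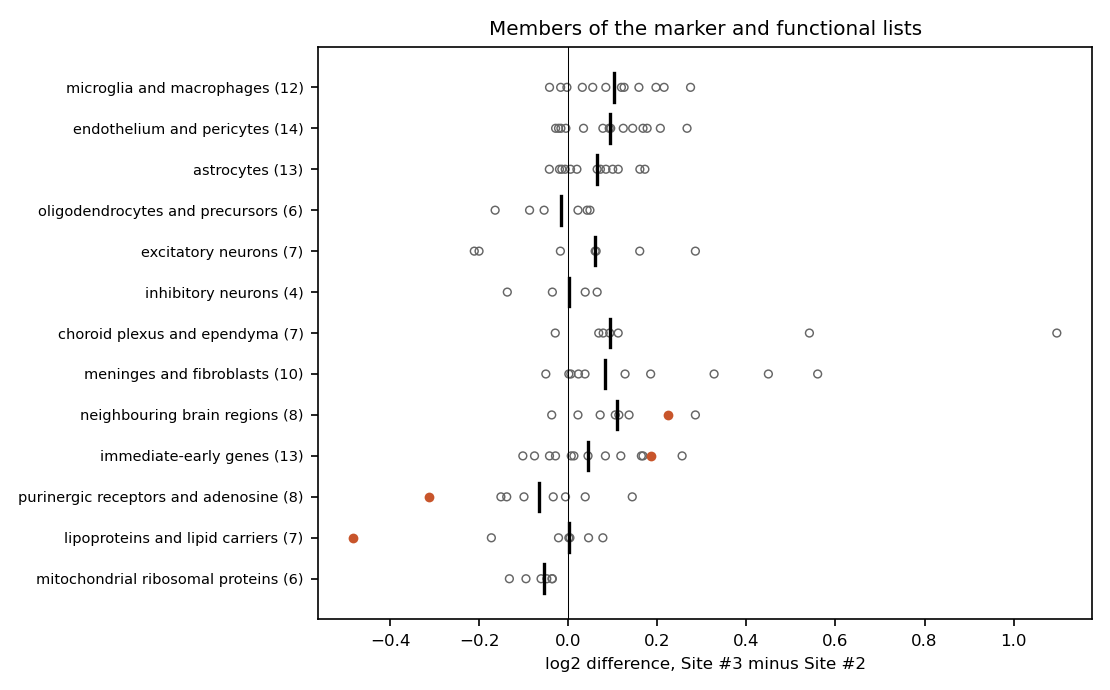
Circles give the log2 difference, Site #3 minus Site #2, of each matched gene of a list (number in brackets), filled where the gene was called, and the bar is the median of the list. Microglial and vascular genes lie mostly above 0, and so do those of astrocytes, choroid plexus, meninges, neighbouring regions and the immediate-early list. Of the 954 genes with a symbol and a mean of at least 1 PM, 561 were higher and 393 lower. The called genes Apoc1 and P2rx4 stand far below the other members of their lists.

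Lists of functions follow, and each list in this paragraph held 1 called gene. Over all genes tested 239 of 22664 were called (1.05%). Among the 954 genes with a symbol and a mean of at least 1 PM, 6 were called higher and 12 lower. Whether the lists differ from these shares was not tested. Of 25 genes of purinergic signalling, by which cells sense ATP and adenosine, 8 were matched and P2rx4 alone was called. The list had 1 gene higher and 3 lower at an unadjusted p under 0.05, with a median of -0.07 (-0.11 without the 3 libraries highest in meningeal genes). Beside P2rx4 the lower ones were Slc29a4, a transporter of monoamines and adenosine (-0.14), and the ATP-gated channel P2rx5 (-0.15), and the higher one was the lysosomal nucleoside transporter Slc29a3 (0.14). The ATP receptors P2rx7 (-0.03) and P2ry13 (-0.0060), both found on microglia, had ranges that overlapped widely between the sites. Of 17 genes of lipoproteins and lipid carriers 7 were matched, and Apoc1 alone was called, with a list median of 0.0015 (0.0031 without the 3 libraries highest in meningeal genes). At an unadjusted p under 0.05 it held 1 higher gene, Lipg (0.08), and 2 lower. In that list Lmf1, which helps lipases to fold, differed by -0.17 without overlap but was not called. Of 30 genes of cholesterol and fatty acid synthesis 5 were matched, and Acsl1 alone was called. Fads2, a fatty acid desaturase in that list, was higher by 0.13 without overlap and was not called, and Acat2l1, a gene like that of an acetyl-CoA acetyltransferase, differed by -0.12 with overlap and was not called.

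Immediate-early genes are transcribed within minutes of a stimulus. Of 41 on the list 13 were matched, and Dusp5 alone was called, with 4 genes higher and 1 lower at an unadjusted p under 0.05 and a median of 0.04 (0.02 after median centring). Beside Dusp5 the higher ones were Ctgf (0.26), a secreted matrix protein, the vascular transcription factor Klf2 (0.17) and Zfp36 (0.12), which speeds the decay of messenger RNA, and the lower one was Arf6 (-0.10), a small GTPase of membrane traffic. Dusp1 (0.04), Sgk1 (-0.04) and Gadd45b (0.01), which also answer to stress hormones or activity, overlapped widely. Of the glucocorticoid-responsive genes 4 were matched of 24, with limma calling 0, 1 higher at an unadjusted p under 0.05 and a median of 0.06.

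The lists of the study's region markers were small after matching. Of 41 CA2 genes 4 were matched, with Dusp5 called and a median of 0.11 (0.067 without the 3 libraries highest in meningeal genes). Of 39 dentate gyrus genes 8 were matched, with limma calling 0. At an unadjusted p under 0.05, 0 of these 8 were higher and 3 lower. By sign alone 5 of the 8 were higher at Site #3 and 3 lower. Their median was 0.027 (0.045 without the 3 libraries highest in meningeal genes). CA1 and CA4 had 1 matched gene each, Mpped1 (0.06) and Ajap1 (0.05), and neither was called. Of 6 genes for proteins of the mitochondrial ribosome limma called 0, with 1 lower at an unadjusted p under 0.05 and a median of -0.05 (-0.08 after median centring). Of 20 ion channel genes limma called 0, with 5 higher and 0 lower at an unadjusted p under 0.05. By sign alone 12 of these 20 were higher at Site #3 and 8 lower. Their median was 0.02, which became -0.0052 after median centring and 0.0024 without the 3 libraries highest in meningeal genes. Of 28 solute carriers limma called 0, with 2 higher and 1 lower at an unadjusted p under 0.05 and a median of 0.03 (0.0077 after median centring and 0.0022 without the 3 libraries highest in meningeal genes). Of 17 zinc finger genes Zfp94 alone was called, with a median of -0.0062 (-0.020 without the 3 libraries highest in meningeal genes).

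In the lists that follow, limma called 0 genes. Of 4 heat shock genes 1 was higher and 1 lower at an unadjusted p under 0.05, the higher one being Bag3 (0.18), a partner of the chaperone Hsp70. Of 3 genes of hypoxia and glycolysis 2 were higher, the phosphofructokinase Pfkl (0.17) and the collagen-modifying enzyme P4ha2 (0.20). The 5 genes of antigen presentation, the 3 interferon-responsive genes and the 9 collagens held 0 genes with an unadjusted p under 0.05. So did the 5 genes of synaptic vesicles and the 3 of the respiratory chain. The histone deacetylase gene Hdac2 (-0.08) was the 1 lower gene of 4 that act on DNA methylation and histones, and Rpl7l1 (-0.08) the 1 lower gene of 4 for cytosolic ribosomal proteins. Of 24 circadian clock genes 1 was matched, the transcription factor Hlf (0.14), with ranges that overlapped.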

How the data were processed

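The authors trimmed reads with Trimmomatic, aligned them with HISAT2 to rn6 and counted them per gene with featureCounts, and their processing notes also name DESeq2. The deposited values are on a log2 scale, and the step that normalized them is not named in the sources used, so they were taken as deposited. The test was limma on the libraries of the 2 sites compared (lmFit, then eBayes with its trend option, two-sided p values, Benjamini-Hochberg adjustment), which a log2 scale needs in place of a test on counts. The steps were first tried on simulated data. Genes at exactly 0 in all 17 libraries were dropped. Named genes are the called genes with a symbol and a mean of 1 PM or more, up to 12 in each direction, and the 2 called genes without a symbol in each direction with the largest difference, no overlap and that mean. Promoters came from the RefSeq table of GRCr8. The alternatives changed the filter, the variance model, the scaling, the libraries used and the pairing by replicate number. The members, the gene lists and the motifs were chosen with earlier results of these data known. The tools were R 4.3.3, limma 3.58.1, Python 3.11.15, numpy 2.4.6, pandas 2.3.3 and matplotlib 3.10.9.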

Additional observations from a re-analysis of the deposited data

Results flagged for a closer look

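In 76 groups of 6 libraries (the named genes, 4 genes that mark single libraries and the means of the cell-type lists, each at Site #2 and Site #3), 12 had 1 library far from the other 5, measured by its gap to the nearest of them over the whole range. Chance sets a library apart in about 1 in 20 groups, but the 4 genes were picked because they mark single libraries and give 5 of the 12, so the count cannot be read against that rate. The log2 values of these libraries follow. Site #3 replicate 1 stood at 12.04 for F5, at 7.74 for Aqp1, at 10.21 for Tshz1 and at 8.26 for the mean of the choroid plexus genes. Site #2 replicate 3 stood at 10.64 for Col1a1, at 9.42 for Fmod, at 6.18 for Aqp1, at 9.65 for P2rx4 and at 6.72 for the mean of the meningeal genes. Site #2 replicate 6 stood at 9.89 for Ppm1d. Site #3 replicate 5 stood at 7.41 for ENSRNOG00000037364, and Site #3 replicate 4 at 9.51 for the mean of the 6 microglial genes that the study used. Tshz1, Ppm1d and ENSRNOG00000037364 lay low in these libraries and the others high.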

How the results depend on the processing

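No named gene changed direction under any alternative run, although many of these runs could not reverse one. Over the 20 genes with a symbol, 236 of 457 results were called and 221 kept their direction without a call. For the 4 without one, 83 of 92 were called. The total of 239 genes (120 higher, 119 lower) stayed within 1.5 times under quantile normalization, array weights, a fit without the trend, robust estimation and 1 fit of all 17 libraries. Median centring left 73 higher. Testing fewer genes raised the counts, to 482 (235 higher, 247 lower) at a mean of 1 PM or more and to 485 (239 higher, 246 lower) at a mean log2 value of at least 5, and testing all listed genes gave 158, with 72 lower. With a library left out in turn the total ran from 81 to 333, the higher genes from 50 to 148 and the lower from 31 to 185, and each library but Site #2 replicate 1 lowered the total by more than 1.5 times. Without the 3 libraries highest in meningeal genes, chosen after seeing the data, 29 were called (21 higher, 8 lower). A replicate block paired by replicate number gave 43 (22 higher, 21 lower) for Site #2 and Site #3 and 0 of 23 for Site #1 and Site #3. Under it Itgad alone of the 20 genes was called. Equal numbers mark different rats, and profiles of equal number correlated across genes at -0.43 to 0.20 (mean 0.030). Sites #2 and #3 hold the same replicate numbers, so the block could not change a difference between them. Those of P2rx4 (-0.31) and Apoc1 (-0.48) are therefore the same with and without it, which is no check of them. Leaving out a library gave 9 to 30 for Site #1 and Site #3, below 23 by more than 1.5 times without each of the Site #3 replicates, and 0 to 1 for Site #1 and Site #2. The cause of these shifts was not tested. The log2 values hold no counts, so limits set by depth could not be given.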
